A study of Homo sapiens with 2 samples.

Results

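Promoters that served long non-coding RNA (lncRNA) genes and no protein-coding gene were examined in the ATAC-seq peak lists of control and methylglyoxal (MGO)-treated 293T cells. A peak belonged to this group when it lay within 1000 bp of a transcript start of a GENCODE 44 lncRNA gene and within 1000 bp of no transcript start of a protein-coding gene. Starts of other kinds of gene, such as genes of small RNAs, were not considered, so a peak of the group could also lie near one. By this rule 1672 of the 35515 control peaks on chromosomes 1 to 22, X and Y were lncRNA-only promoter peaks (4.71%), and 1153 of the 22379 MGO peaks (5.15%). The rule used position only, so no measured value of a peak entered it. The rule and the gene lists below were, however, chosen with earlier results of these data known.

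ATAC-seq cuts accessible DNA with the Tn5 transposase, and a peak is a stretch where the cuts pile up. The 293T line derives from human embryonic kidney and expresses the large T antigen of SV40. Each list came from 1 library of 50000 cells, either control or grown for 12 h in medium containing 0.5 mM MGO, and for the control 1 label names PBS while the treatment protocol describes plain fresh medium. MGO is a reactive by-product of glycolysis that attaches to arginine and lysine side chains, those of histones included. The authors brought the libraries to the same depth by random subsampling before calling peaks. With 1 library per condition no difference between the conditions has a replicate check, and every 95% interval below covers counting error only and takes peaks as independent.

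lncRNA genes are transcribed mostly by RNA polymerase II and yield transcripts without a long reading frame. Many of their promoters resemble those of protein-coding genes, with a nucleosome-depleted region and often a CpG island, but they are on average weaker and more restricted to certain cell types. Some lncRNA genes are hosts whose introns carry small nucleolar RNAs (snoRNAs), the guides for the chemical modification of ribosomal RNA, or microRNAs (miRNAs). Others act as RNAs in the nucleus or lie antisense to protein-coding genes.

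Peaks had 3 outcomes at these promoters, and sequences of each are shown here: a peak in both lists, a control peak without an MGO peak, and an MGO peak without a control peak. Each sequence is the 300 bp around the middle of the peak, on the plus strand of GRCh38. Capitals mark matches, on either strand, to short motifs. These were the GC box, spelled GGGCGG, the CCAAT box, spelled as its name, and the ETS core, spelled CCGGAA. The AP-1 site was searched as TGACTCA, and its reverse complement TGAGTCA counted as the same site. A match is a description of the letters only. Peaks in both lists are represented by the snoRNA hosts SNHG8 (chr4:118278579-118278878) and DANCR (chr4:52712313-52712612) and by MIR17HG (chr13:91348024-91348323), the host of the miR-17-92 cluster. They are shown because they belong to the gene groups described below, and they were not picked as typical. Each of these windows held GC boxes, against 51.1% of the control lncRNA-only promoter peaks that an MGO peak overlapped.
SNHG8: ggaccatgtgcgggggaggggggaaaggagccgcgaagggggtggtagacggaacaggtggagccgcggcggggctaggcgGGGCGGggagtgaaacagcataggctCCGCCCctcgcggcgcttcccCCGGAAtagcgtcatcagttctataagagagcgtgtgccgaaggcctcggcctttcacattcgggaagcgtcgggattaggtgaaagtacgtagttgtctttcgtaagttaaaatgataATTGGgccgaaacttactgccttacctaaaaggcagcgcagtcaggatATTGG
DANCR: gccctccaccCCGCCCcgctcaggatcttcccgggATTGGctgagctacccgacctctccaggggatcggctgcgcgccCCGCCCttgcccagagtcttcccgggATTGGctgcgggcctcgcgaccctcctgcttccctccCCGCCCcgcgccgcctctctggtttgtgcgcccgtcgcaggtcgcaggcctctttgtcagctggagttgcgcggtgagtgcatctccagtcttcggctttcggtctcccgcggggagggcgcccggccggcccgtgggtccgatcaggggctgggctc
MIR17HG: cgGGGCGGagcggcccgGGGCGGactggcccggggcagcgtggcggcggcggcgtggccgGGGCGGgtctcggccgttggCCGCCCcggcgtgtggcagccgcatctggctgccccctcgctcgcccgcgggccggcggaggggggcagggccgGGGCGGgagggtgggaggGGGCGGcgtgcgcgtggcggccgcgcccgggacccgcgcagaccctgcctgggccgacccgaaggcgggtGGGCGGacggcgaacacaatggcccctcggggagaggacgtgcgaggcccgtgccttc

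LINC00632 (chrX:140709467-140709766) and LINC02731 (chr11:134037236-134037535) are shown because they are among the 5 strongest control lncRNA-only promoter peaks for which the MGO list held no peak. LINC00632, on the X chromosome, is the host transcript of the circular RNA CDR1-AS. The LINC00632 window held none of the motifs and 3 CG dinucleotides, at a GC content of 40.7%. The LINC02731 window held 3 GC boxes and 26 CG dinucleotides, at a GC content of 69.3%, so that strong lost peaks included both kinds of sequence.
LINC00632: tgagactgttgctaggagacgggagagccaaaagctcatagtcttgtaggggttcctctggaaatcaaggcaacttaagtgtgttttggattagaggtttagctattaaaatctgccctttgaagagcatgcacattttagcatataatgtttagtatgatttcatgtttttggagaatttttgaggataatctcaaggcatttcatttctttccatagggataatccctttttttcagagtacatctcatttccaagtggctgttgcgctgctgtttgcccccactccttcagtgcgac
LINC02731: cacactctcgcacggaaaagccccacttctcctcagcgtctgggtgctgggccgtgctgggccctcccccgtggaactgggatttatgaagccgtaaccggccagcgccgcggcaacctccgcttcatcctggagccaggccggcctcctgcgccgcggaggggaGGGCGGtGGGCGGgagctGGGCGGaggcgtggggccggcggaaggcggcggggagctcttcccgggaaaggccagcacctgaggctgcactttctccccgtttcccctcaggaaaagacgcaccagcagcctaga

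PKN2-AS1 (chr1:88327851-88328150), LINC01239 (chr9:22683164-22683463) and LINC01579 (chr15:93829561-93829860) are shown because they are among the 5 strongest MGO lncRNA-only promoter peaks without a control peak. Each of these windows held 1 AP-1 match, and each held 2 CG dinucleotides. Of the other 2, ENSG00000287423 also held 1 AP-1 match. The strongest, MIR663AHG, held none, but 1 GC box, 1 ETS core, 1 E-box (CACGTG) and 40 CG dinucleotides.
PKN2-AS1: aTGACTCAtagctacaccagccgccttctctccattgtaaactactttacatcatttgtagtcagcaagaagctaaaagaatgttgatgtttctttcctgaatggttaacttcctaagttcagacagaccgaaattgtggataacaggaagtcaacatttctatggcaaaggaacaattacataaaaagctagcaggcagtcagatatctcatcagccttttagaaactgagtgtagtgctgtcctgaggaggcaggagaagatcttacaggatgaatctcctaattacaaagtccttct
LINC01239: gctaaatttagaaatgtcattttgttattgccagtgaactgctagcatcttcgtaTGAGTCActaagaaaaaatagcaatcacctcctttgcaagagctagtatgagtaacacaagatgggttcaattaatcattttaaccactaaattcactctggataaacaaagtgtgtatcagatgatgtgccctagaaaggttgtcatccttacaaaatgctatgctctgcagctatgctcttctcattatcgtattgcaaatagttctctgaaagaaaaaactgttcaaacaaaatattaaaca
LINC01579: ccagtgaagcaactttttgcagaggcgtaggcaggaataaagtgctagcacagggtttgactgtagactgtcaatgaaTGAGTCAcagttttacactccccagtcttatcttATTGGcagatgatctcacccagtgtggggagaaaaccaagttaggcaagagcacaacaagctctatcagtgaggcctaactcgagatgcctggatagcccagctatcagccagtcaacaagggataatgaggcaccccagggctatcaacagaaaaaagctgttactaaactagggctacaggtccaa

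The MGO list held fewer lncRNA-only promoter peaks than the control list, and the reduction was deeper than at protein-coding promoters but shallower than away from promoters. The number of MGO peaks divided by control peaks was 0.690 at lncRNA-only promoters (exact binomial 95% interval 0.639 to 0.744). It was 0.895 at protein-coding-only promoters (0.870 to 0.920) and 0.445 at distal peaks, which lie near no start of either kind (0.435 to 0.457). The bases under lncRNA-only promoter peaks went from 1.47 Mb in control to 0.941 Mb in MGO, a ratio of 0.639. Over all peaks of the 2 lists the ratio of numbers was 0.630 (0.620 to 0.641) and that of bases 0.641, so that the covered length at lncRNA-only promoters changed as in the whole list. When the control list was reduced to its strongest peaks so that both lists held equal numbers, the ratio at lncRNA-only promoters was 0.961 (0.885 to 1.04), an interval that includes 1.

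Of the 1672 control lncRNA-only promoter peaks, 1012 were overlapped by an MGO peak by at least 1 bp, or 60.5% (Wilson 95% interval 58.2 to 62.8%). The remaining 660, or 39.5%, had no MGO peak, against 50.3% of all control peaks. The retained share was 85.5% at protein-coding-only promoters and 24.3% at distal peaks. It was therefore 25.0 percentage points lower at lncRNA-only than at protein-coding-only promoters (difference −25.0, Newcombe 95% interval −27.4 to −22.5) and 36.3 points higher than at distal peaks (33.8 to 38.7). The gap to protein-coding-only promoters was −11.2 points once −log10 q had to reach 5 and −16.0 points with equal numbers of peaks. Promoters near starts of both kinds, which are not lncRNA-only promoters, retained 95.2%.

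The classes differed in peak strength, width and base composition, and part of these gaps went with those properties. Strength is given as the −log10 of the p-value that the peak caller assigned. Its median was 5.85 at control lncRNA-only promoter peaks, 8.02 at protein-coding-only promoters and 4.24 at distal peaks. Median GC content was 57.4%, 64.1% and 44.4% in the same order. When control peaks were compared within deciles of equal −log10 p, lncRNA-only promoters were 13.3 points below protein-coding-only promoters (difference −13.3, Mantel-Haenszel 95% interval −15.3 to −11.4) and 16.8 points above distal peaks (14.8 to 18.8). At equal −log10 p and GC content together, the differences were −6.52 points (−8.33 to −4.71) and 10.2 points (8.30 to 12.2). In these pooled values the order of the 3 classes was thus kept at equal strength and composition, with smaller gaps. It was not kept in the lowest decile by GC content. There, 27.9% of 68 lncRNA-only promoters were retained, against 15.1% of 126 protein-coding-only promoters and 13.7% of distal peaks.

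**Figure D1:**
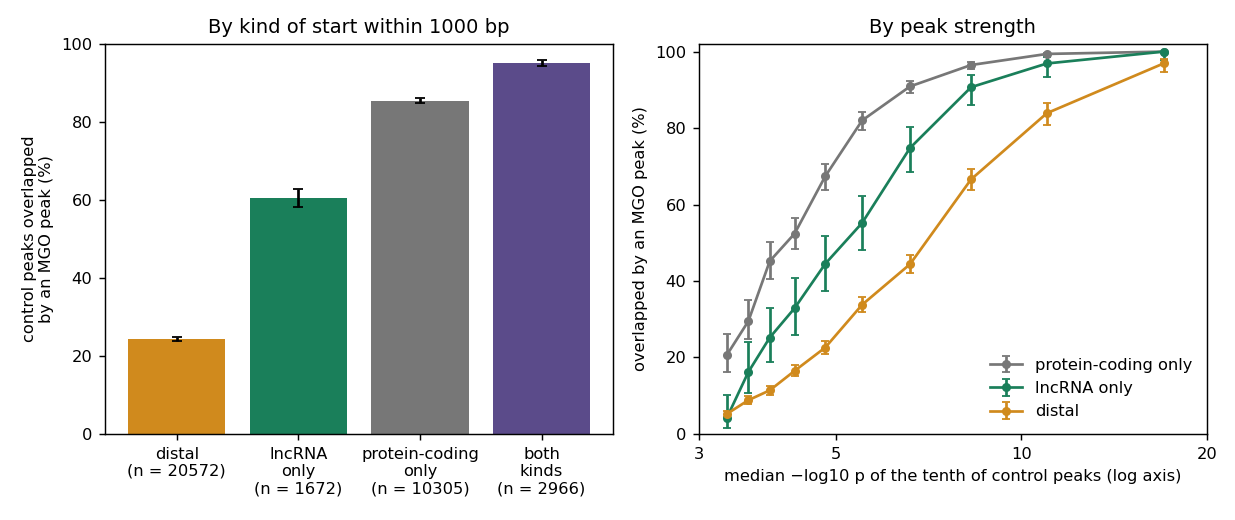
Left, percentage of control peaks overlapped by an MGO peak, by the kind of transcript start within 1000 bp, with the number of peaks under each bar. Right, the same percentage in deciles of all control peaks ordered by −log10 p, for 3 of the classes, with bars and points showing the share and 95% Wilson intervals. The lncRNA-only promoters lie between distal peaks and protein-coding-only promoters overall (60.5% against 24.3% and 85.5%) and in all deciles but the weakest, where 4.17% of them and 5.21% of distal peaks are retained, and the strongest, where all 182 of them and 2078 of 2079 protein-coding-only promoters are.

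In the other direction, 1012 of the 1153 MGO lncRNA-only promoter peaks were overlapped by a control peak, or 87.8% (85.8 to 89.5%). The other 141, or 12.2%, had no control peak, against 21.1% of all MGO peaks. The share without a control peak was 4.33% at protein-coding-only promoters and 45.2% at distal peaks. The lncRNA-only promoters were again intermediate, 7.90 points above the former (6.08 to 9.96) and 33.0 points below the latter (difference −33.0, −35.0 to −30.7).

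Counted by gene, 1800 of the 18866 lncRNA genes (9.54%) had a control lncRNA-only promoter peak and 1305 (6.92%) an MGO one, a ratio of 0.725 (0.675 to 0.779). Both lists held such a peak for 1160 genes, the control list alone for 640 and the MGO list alone for 145. More than 1 control peak was assigned to 90 genes, since lncRNA genes can have several starts, and 217 control peaks lay near starts of more than 1 lncRNA gene. Of the 1012 retained control peaks, 994 met an MGO peak that was itself an lncRNA-only promoter peak and 18 met a distal MGO peak.

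The retained promoters were wider, stronger and richer in GC and CpG than the lost ones. Median width was 969 bp in the 1012 retained control peaks and 538 bp in the 660 lost ones. Median −log10 p was 7.89 against 4.20, with a range of 3.31 to 63.8 in the retained and 3.12 to 12.6 in the lost peaks, so the ranges overlapped. A q-value under 0.01, the limit stated in the study's methods, was met by 91.9% of the retained and 48.5% of the lost peaks. Median GC content was 60.2% against 50.3%, and an lncRNA start lay inside the peak for 81.8% against 52.0%. The 141 MGO peaks without a control peak were narrow and weak, with a median width of 417 bp and a median −log10 p of 4.12, and 42 of them had a q-value under 0.01.

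**Figure D2:**
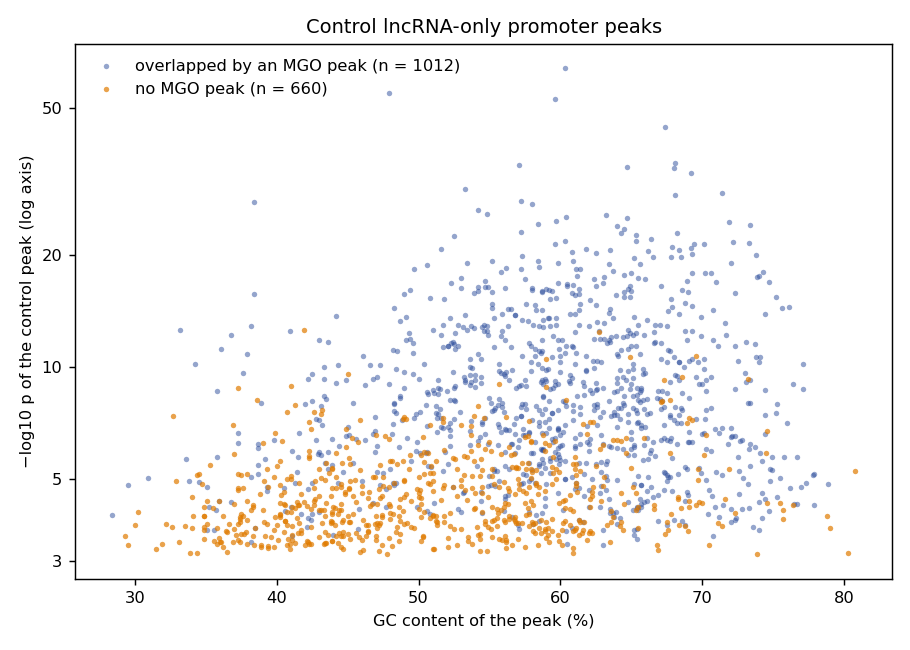
Each point is 1 of the 1672 control lncRNA-only promoter peaks, placed by its GC content (percent, x axis) and its −log10 p (y axis, log scale), and coloured by whether an MGO peak overlapped it. The 660 peaks without an MGO peak gather at low −log10 p (median 4.20) and lower GC content (median 50.3%), and none lies above a −log10 p of 12.6.

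Retention was higher with each of these properties within the lncRNA-only promoters. From the weakest to the strongest quintile by −log10 p it was 14.3%, 39.5%, 62.7%, 87.7% and 98.5%. From the lowest to the highest quintile by GC content it was 28.4%, 50.6%, 63.6%, 76.6% and 83.5%. A CpG-rich peak was defined here as one with a GC content of at least 55% and an observed CpG count of at least 0.6 times the count its C and G content predicts. Of the 678 CpG-rich peaks 86.0% were retained and of the 994 others 43.2%, a difference of 42.8 points (38.6 to 46.7), or 22.5 points at equal −log10 p (18.6 to 26.3). Among the control peaks, 40.6% of lncRNA-only promoters were CpG-rich, against 75.6% of protein-coding-only promoters and 6.29% of distal peaks.

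The position of the start made a smaller difference once strength was held equal. With an lncRNA start inside the peak 70.7% of 1171 peaks were retained, and with the start up to 1000 bp outside it 36.7% of 501. The difference of 34.0 points (28.9 to 38.8) became 7.70 points at equal −log10 p (2.91 to 12.5). Peaks with 4 or more annotated lncRNA starts within 1000 bp were retained in 76.1% of 451 cases, those with 2 to 3 starts in 67.0% of 376 and those with 1 start in 49.3% of 845. The difference between 4 or more and fewer starts, 21.3 points (16.3 to 25.9), was 5.76 points at equal −log10 p (1.73 to 9.79).

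Promoters that lay inside a protein-coding gene were retained less often than those outside. Inside such a gene on the opposite strand, the arrangement of an antisense lncRNA, 43.3% of 180 peaks were retained, and inside on the same strand 49.4% of 79. Outside protein-coding genes 62.8% of 1341 were retained where no protein-coding start lay within 5000 bp, and 73.6% of 72 where one did. Inside minus outside was −18.2 points (−24.6 to −11.6), and −7.14 points at equal −log10 p (−12.2 to −2.14).

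By kind of gene symbol, retention was 61.4% near genes with a LINC symbol (368 peaks), 56.9% near genes with an antisense symbol (137) and 58.3% near genes known only by an identifier (916). Antisense symbols differed from the rest by −3.91 points (−12.6 to 4.45), an interval that includes 0. Genes known only by an identifier differed from those with a symbol by −4.93 points (−9.59 to −0.223), and by −1.37 points at equal −log10 p (−4.98 to 2.23). Retention was 67.3% at the 49 peaks of host genes by symbol, 71.5% at the 193 peaks of genes with other symbols and 33.3% at the 9 peaks of genes named as divergent transcripts (12.1 to 64.6%). The 206 peaks of lncRNA genes that GENCODE tags as overlapping a pseudogene were retained in 84.0% of cases, against 57.2% of the other 1466, and at equal −log10 p the difference was 9.64 points (4.84 to 14.4). Such genes often have close copies elsewhere, where reads are hard to place, and the part of this in the result was not tested.

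**Figure D3:**
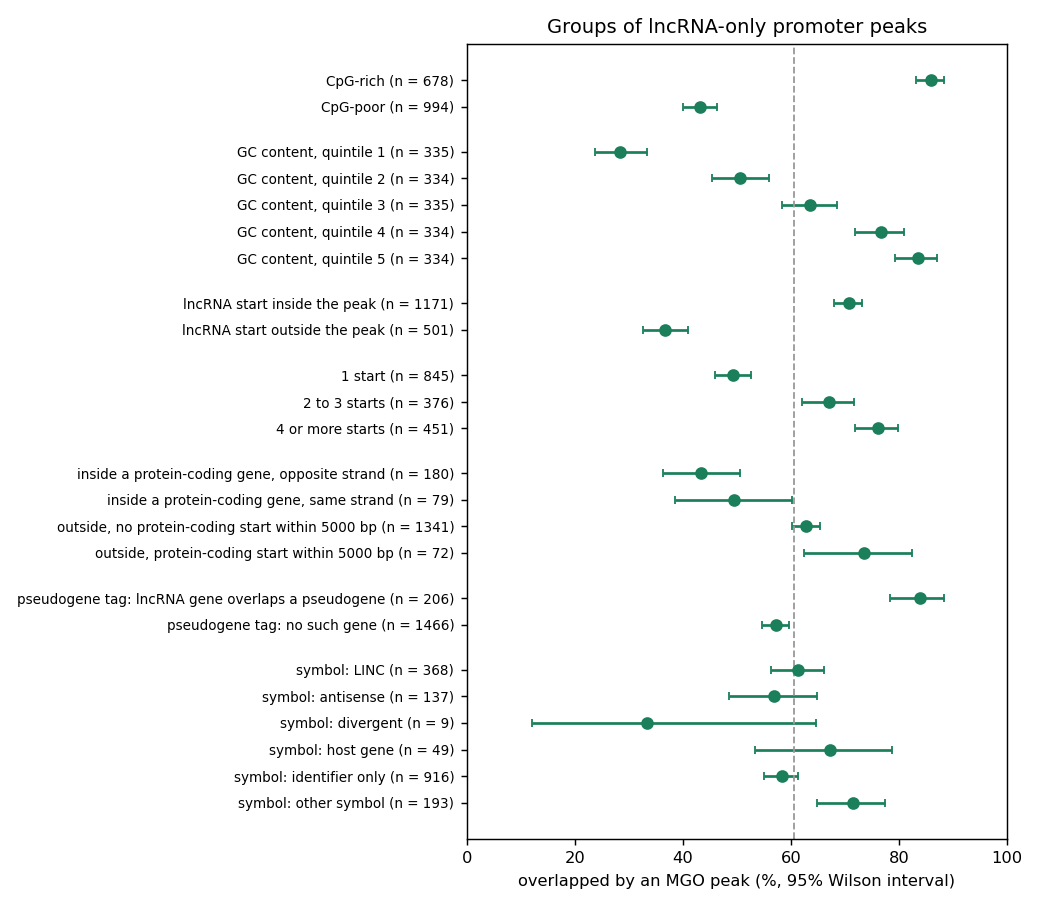
Percentage of control lncRNA-only promoter peaks overlapped by an MGO peak (x axis) in groups defined by sequence, start position, surrounding genes and gene symbol, with the number of peaks in each. Points are shares, bars are 95% Wilson intervals and the dashed line is the share over all 1672 peaks, 60.5%. CpG-rich peaks (86.0%) and the lowest quintile by GC content (28.4%) lie farthest to each side.

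Where both lists had a peak, the MGO peak was usually narrower. In 1010 pairs of 1 control lncRNA-only promoter peak and 1 MGO peak the median width was 969 bp in control and 773 bp in MGO. The median ratio was 0.828 (quartiles 0.643 and 1.01), and the MGO peak was narrower in 74.0% of pairs (71.2 to 76.6%). The median ratio was 0.894 in protein-coding-only pairs and 0.811 in distal pairs. Median fold enrichment over background went from 3.57 to 3.22. In the 670 pairs with an lncRNA start inside the control peak and all nearby lncRNA starts on 1 strand, the upstream edge lay a median of 413.5 bp from the start in control and 330.0 bp in MGO. The downstream edge lay at 512.5 bp and 436.5 bp, so both sides drew in by a similar amount, 72.0 bp upstream and 63.5 bp downstream in the median pair.

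Coverage along the starts gave the same picture without pairing of peaks. At 38386 lncRNA starts with no protein-coding start within 1000 bp, a control peak covered 12.3% of the starts themselves and an MGO peak 9.87%, a ratio of 0.806. The largest difference, 2.59 percentage points, was at 150 bp upstream, where coverage was 11.4% and 8.77%. At 129117 protein-coding starts with no lncRNA start nearby, coverage of the start was 37.2% and 34.7%, a ratio of 0.934. Starts of 1 gene often share a peak and are not independent.

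**Figure D4:**
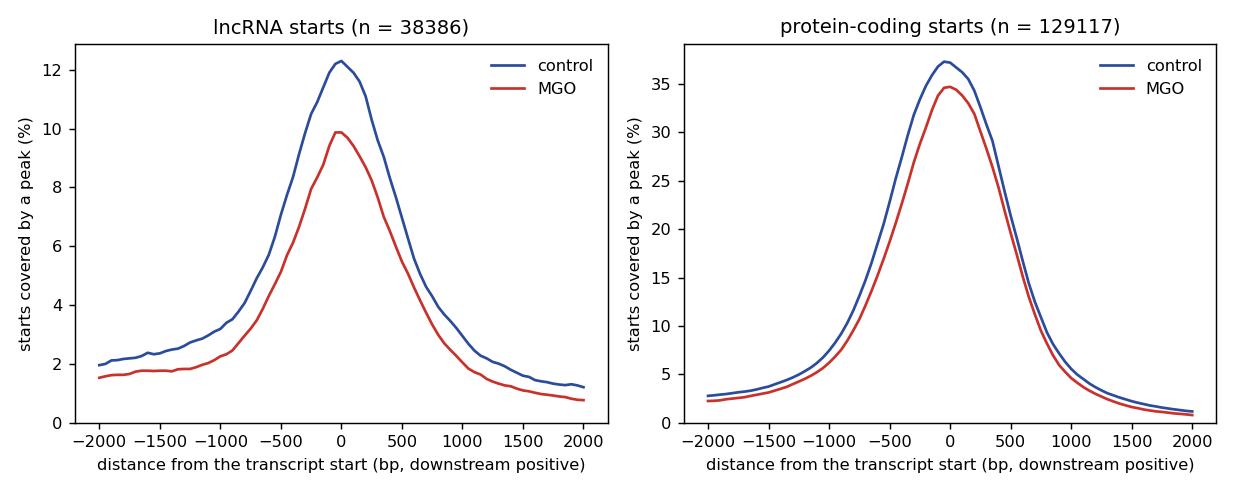
Percentage of transcript starts covered by a control peak (blue) or an MGO peak (red) at each distance from the start (x axis, bp, downstream positive), for lncRNA starts on the left and protein-coding starts on the right. The y axes have different scales. The control line lies above the MGO line at all plotted distances on both sides, with coverage at the start of 12.3% against 9.87% for lncRNA genes and 37.2% against 34.7% for protein-coding genes.

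Among named gene groups, the snoRNA hosts were retained in full. Of 31 snoRNA host genes, 15 had an lncRNA-only promoter peak in both lists. Their 15 control peaks were all overlapped by MGO peaks (lower Wilson bound 79.6%), against 60.5% over all lncRNA-only promoters, and their median −log10 p was 7.73 against 5.85. An lncRNA start lay inside each of these 15 peaks, and most of them were CpG-rich by the definition above. Over all lncRNA-only promoters, 70.7% of peaks with a start inside and 86.0% of CpG-rich peaks were retained. Of the other hosts, 14, GAS5 and SNHG1 among them, had a peak that also lay near a protein-coding start, and 2, SNHG14 and SNHG32, had no peak.

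DANCR, a host that also keeps progenitor cells undifferentiated, had the strongest control peak of the group, at −log10 p 22.1 in control and 16.9 in MGO (chr4:52711953-52712973, exonic at its middle). Its MGO peak was wider, 1732 bp against 1021 bp. The SNHG8 peak (chr4:118278225-118279234) was at 11.8 in control and 17.9 in MGO, and its fold enrichment was 3.41 and 4.44. EPB41L4A-AS1, which lies antisense within EPB41L4A, was at 11.3 and 11.4, and SNHG15 at 11.0 and 6.43. SNHG12 was at 9.82 and 10.4, SNHG26 at 9.78 and 8.50, SNHG21 at 8.65 and 7.35, and SNHG6 at 7.73 and 7.64. Over the 15 pairs, −log10 p was higher in MGO at 8, or 53.3%, against 22.8% of all 1010 lncRNA-only pairs. The weakest control peak of the hosts, at SNHG17 (3.44), also had an MGO peak (3.72), whereas the weakest quintile of all lncRNA-only promoter peaks was retained in 14.3% of cases. SNHG25 went from 6.72 to 12.0. These last 2 genes were chosen after their values were seen.

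Of 28 miRNA host genes, 18 had a control lncRNA-only promoter peak, 1 (MIR22HG) had a peak also near a protein-coding start, and 9 had none. Their 27 control peaks were overlapped in 18 cases, or 66.7% (47.8 to 81.4%), an interval that includes the 60.5% over all lncRNA-only promoters. Their median −log10 p was 6.90. MIR17HG, whose miRNAs promote proliferation, was at −log10 p 24.6 in control and 31.9 in MGO (chr13:91347002-91349346, intronic). MIR4458HG was at 20.2 and 10.1, and MIR31HG, host of miR-31, at 16.8 and 13.6. MIR181A1HG, host of miR-181a and miR-181b, was at 15.7 and 6.70, and its peak was GC-poor, at 38.4%. DLEU2, host of miR-15a and miR-16-1, was at 12.5 and 9.64 at a start shared with DLEU1. MIR9-1HG was at 11.8 and 11.2, and MIR29B2CHG at 11.7 and 10.4. Of the 18 retained peaks, 5 had a higher −log10 p in MGO, or 27.8%, against 22.8% of all lncRNA-only pairs.

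MIR99AHG and MIR9-1HG kept some of their promoter peaks and lost others. MIR99AHG, the host of miR-99a, let-7c and miR-125b-2, had 5 control peaks along chromosome 21. The strongest was at 10.8 in control and 6.39 in MGO, and the next 2, at 8.13 and 7.44, had no MGO peak. The other 2 met MGO peaks that covered 33.6% and 29.4% of them. MIR9-1HG lost its second peak, at 7.26. MIR100HG, the paralogous host of miR-100 and miR-125b-1, lost both of its peaks, at 7.22 and 3.39. Of the hosts with 1 peak, MIR210HG (5.24), MIR137HG (4.25), MIR646HG (3.42) and MIR124-1HG (3.31) had no overlapping MGO peak, although MIR124-1HG had an lncRNA-only promoter peak elsewhere in the MGO list, and that of MIR200CHG (6.90) met a distal MGO peak at 4.03. The genes after MIR9-1HG in this paragraph were chosen after their values were seen.

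Of 30 well-studied lncRNA genes, 3 (TUG1, BCYRN1 and TINCR) are not lncRNA genes in GENCODE 44. Of the other 27, 14 had a control lncRNA-only promoter peak, 6 had a peak also near a protein-coding start, 6 had none, and NEAT1 had one in MGO only. Their 25 control peaks were overlapped in 17 cases, or 68.0% (48.4 to 82.8%), an interval that includes the 60.5% over all lncRNA-only promoters. CHASERR, which represses its neighbour CHD2, was at −log10 p 19.8 in control and 18.2 in MGO (chr15:92882127-92883270). JPX and FTX belong to the X inactivation centre. JPX was at 11.0 in control and 7.68 in MGO, and FTX at 10.0 and 5.91. KCNQ1OT1, an imprinted RNA antisense within KCNQ1, was at 10.4 and 5.13. FIRRE, which shapes chromosome architecture in the nucleus, was at 9.28 and 5.34 at its stronger peak and at 6.10 and 7.81 at its other peak. PVT1 was at 9.15 and 5.52, and LINC00511 at 9.06 and 4.33, where the MGO peak was 440 bp wide against 1451 bp in control. DLEU1 was at 12.5 and 9.64 at the start it shares with DLEU2. A further DLEU1 peak, at 9.59, had no MGO peak, and another was at 6.36 and 3.73. Over the 17 retained peaks of the list −log10 p was higher in MGO at 2, or 11.8%, against 22.8% of all lncRNA-only pairs.

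MALAT1, a nuclear RNA of speckles, was at 6.10 in control and 4.78 in MGO, and NORAD, which binds Pumilio proteins, at 6.15 and 4.56. NEAT1, the scaffold of paraspeckles, had an MGO peak at 4.60 and no control peak overlapping it. CASC15 had 5 control peaks, and 1 of them, at 7.82 in control and 3.89 in MGO, was retained. CYTOR, at 3.98, had no MGO peak. The values in this paragraph belong to genes chosen after their values were seen.

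**Figure D5:**
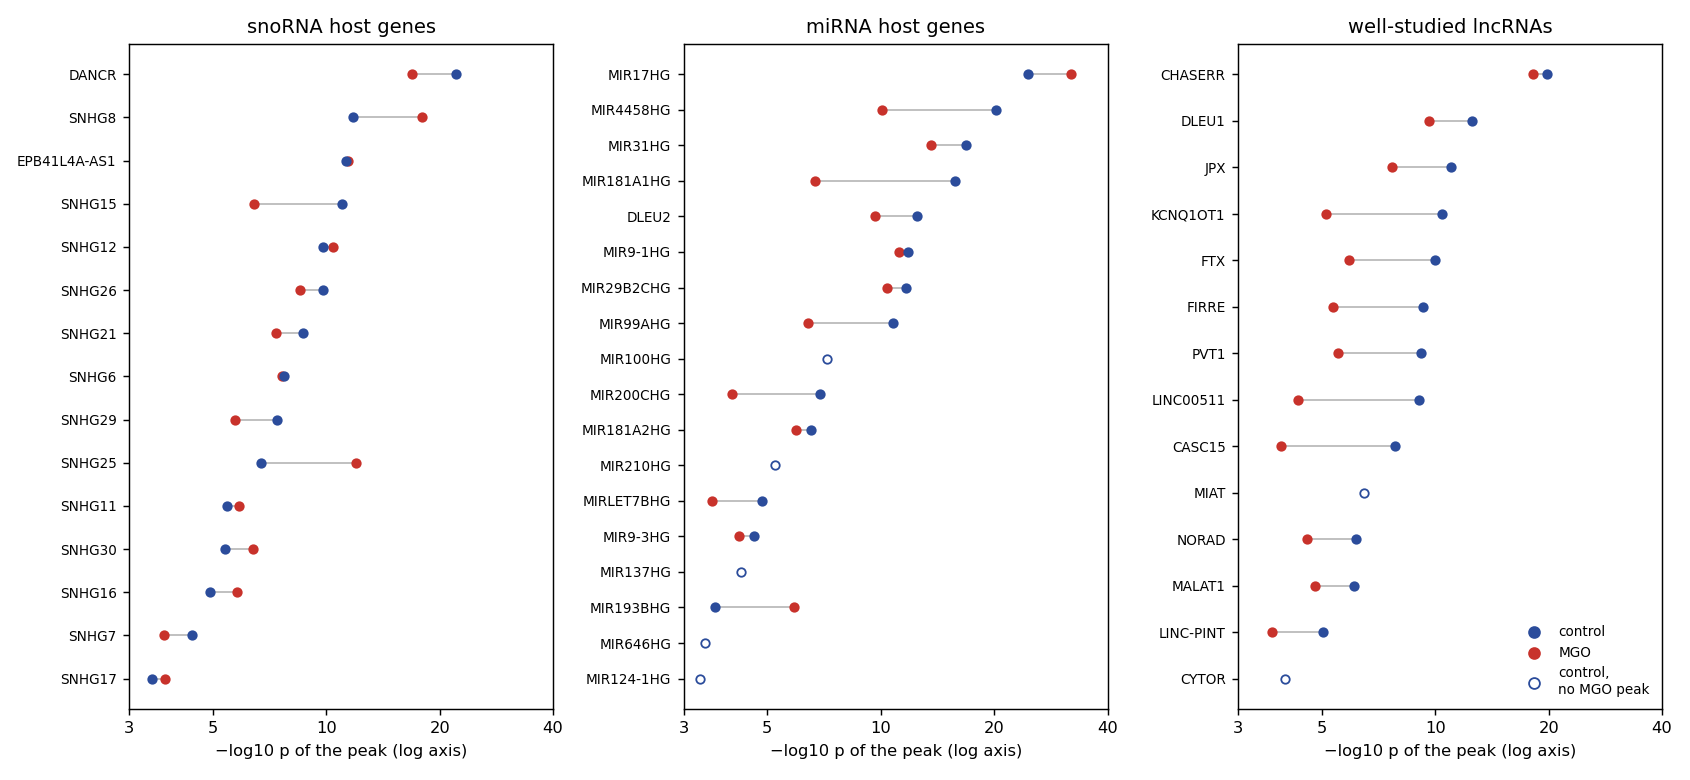
Strength (−log10 p, log axis) of the strongest control lncRNA-only promoter peak of each listed gene (blue) and of the MGO peak that overlapped it (red), for snoRNA hosts, miRNA hosts and well-studied lncRNAs. Open circles are control peaks with no MGO peak. All 15 snoRNA hosts have a red point, at 8 of them to the right of the blue one.

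Of 29 antisense lncRNAs of developmental transcription factor genes, 3 had an lncRNA-only promoter peak in control, where 9.54% of all lncRNA genes did. Of the others, 18 had a peak that also lay near a protein-coding start and 8 had no peak. The 3 genes, HOTAIRM1, HOXC-AS1 and HOXB-AS3 of the HOX clusters, had weak control peaks at −log10 p 4.60, 3.97 and 3.62. None of the 3 was overlapped by an MGO peak, and with 3 peaks the interval runs from 0 to 56.1%.

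The 5 strongest lncRNA-only promoter peaks of the control list were present in both lists. ENSG00000291149 (chr7:143835936-143837486) was at −log10 p 63.8 in control and 46.3 in MGO, ENSG00000289878 at 52.8 and 31.7, ENSG00000229422 at 44.2 and 31.7, and FAM86DP at 35.5 and 22.7. ROCK1P1 was the exception in direction, at 54.6 and 84.6, with a 2876 bp peak in control and a 3323 bp peak in MGO. ENSG00000291149, ROCK1P1 and FAM86DP overlap annotated pseudogenes.

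The 5 strongest control peaks without an MGO peak had the start of their lncRNA inside the peak or 15 bp from it. They were LINC00632 (chrX:140709432-140709803) at −log10 p 12.6, ENSG00000229227 at 12.4, LINC02731 (chr11:134037124-134037649) at 10.7, ENSG00000257239 at 10.6 and ENSG00000280018 at 10.5. Their widths were 372, 608, 526, 393 and 681 bp, all under the median of 796.5 bp, and their fold enrichments of 3.64 to 5.20 were above the median of 3.23. The median width of all 660 lost peaks was 538 bp, which ENSG00000229227 and ENSG00000280018 exceeded. The 5 were picked by −log10 p, so their high enrichment is not a separate finding. None of the 5 lay inside a protein-coding gene, and neither did 1413 of all 1672 control lncRNA-only promoter peaks.

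The 5 strongest MGO peaks without a control peak were MIR663AHG at −log10 p 7.68, PKN2-AS1 (chr1:88327766-88328237) at 7.53, LINC01239 (chr9:22682661-22683968) at 7.44, LINC01579 (chr15:93829470-93829952) at 6.71 and ENSG00000287423 at 6.65. MIR663AHG was GC-rich, at 73.1%, and the other 4 had a GC content between 38.3% and 48.7%. The starts of PKN2-AS1, LINC01239 and LINC01579 lay 846, 191 and 296 bp outside the peak, and all 3 peaks were intronic at their middle. Thus 3 of the 5 lay beside a start and not over it. This was near the share of the whole set, since an lncRNA start lay inside 41.8% of all 141 MGO peaks without a control peak.

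Motif matches in the 300 bp around the peak middle differed between retained and lost promoters. A GC box, the site of SP-family factors, was present in 51.1% of retained and 20.3% of lost control peaks, against 33.4% of all control peaks. The ETS core was present in 19.3% and 6.36%, against 11.1%. TATAAA, the TATA box, was present in 6.82% and 14.8%, against 15.2%. Turned around, 82.3% of the 237 peaks with an ETS core were retained and 56.9% of those without. With and without a GC box 79.4% and 48.5% were retained, and with and without a TATA box 41.3% and 62.7%. The differences in retention were then taken at equal GC content of the window. They were 10.7 points for ETS (5.16 to 16.2), 7.41 points for the GC box (1.99 to 12.8) and 3.12 points for the TATA box (−4.94 to 11.2), the last including 0. At equal −log10 p the ETS and GC box differences were 13.1 and 13.6 points and the TATA box difference −9.48 points (−15.3 to −3.67).

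The CCAAT box was present in 26.9% of retained and 34.5% of lost peaks (29.8% of all control peaks), and the NRF1 motif GCGCATGC in 2.77% and 0.758% (1.43% of all). The E-box CACGTG was present in 4.94% and 3.94%, and the CTCF core CCACNAGG in 5.83% and 6.36%, where the intervals of the differences, −1.12 to 2.96 and −3.02 to 1.76 points, included 0. The share of all control peaks was 4.78% for the E-box and 6.33% for the CTCF core. At equal window GC content the CCAAT box difference in retention was 1.41 points (−3.29 to 6.12), and at equal −log10 p it was −6.52 points (−10.3 to −2.69). The E-box difference in retention at equal −log10 p was 7.65 points (0.217 to 15.1), but −4.26 points (−13.3 to 4.81) at equal window GC content. In the same order the NRF1 differences were 9.26 points (2.14 to 16.4) and 6.84 points (−4.67 to 18.3). Those of the CTCF core were 5.58 points (−2.09 to 13.3) and −2.90 points (−11.5 to 5.74).

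The AP-1 site, which binds FOS and JUN dimers, was more frequent in MGO-only promoters. It was present in 25 of the 141 MGO lncRNA-only promoter peaks without a control peak, or 17.7% (12.3 to 24.9%). It was present in 6.21% of the 660 lost control peaks and in 4.84% of the MGO peaks shared with control, against 4.78% of all control peaks. The difference between MGO-only and lost peaks was 11.5 points (5.70 to 18.8). Median GC content, 52.5% and 50.3%, was similar in these 2 sets, as was median −log10 p, 4.12 and 4.20. Among the 4581 MGO-only peaks outside lncRNA-only promoters 15.7% held the site. The higher share was thus not limited to lncRNA-only promoters.

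Peaks at the limit of the rule resembled the weaker ones inside it. The 36 control peaks with an lncRNA start over 900 and up to 1000 bp away were retained in 27.8% of cases, with a median −log10 p of 4.25, and the 29 peaks just outside, at over 1000 and up to 1100 bp, in 31.0%, with a median of 4.49. A protein-coding start lay over 1000 and up to 1100 bp away from 2 control peaks of the group, 1 of them retained.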

How the data were processed

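ATAC-seq peaks of 1 control and 1 MGO-treated 293T library were analysed. The authors aligned reads to GRCh38.p12 (BWA 0.7.15 in the submitters' processing notes, which also name bcl2fastq 2.19, Picard 2.16.0, bedtools and MACS2), removed mitochondrial and multi-mapping reads, subsampled them to equal depth and called broad peaks per sample outside the ENCODE blacklist. The MACS2 version is not given in the sources used here. The deposited columns used are fold enrichment (a ratio), −log10 p and −log10 q. The deposited score was not used. The authors' values carry no read counts, so the depth behind a peak is unknown, and whether further libraries exist is not known.

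All deposited peaks on chromosomes 1 to 22, X and Y entered, down to a q-value of 0.100. Starts came from GENCODE 44 (GRCh38), and GC content and motifs from GRCh38. Peaks overlapped from 1 bp. Shares have 95% Wilson intervals, differences Newcombe intervals, ratios of numbers exact binomial intervals, and differences at equal −log10 p, width or GC content Mantel-Haenszel weights over 10 groups. Where −log10 p was held equal together with width or GC content, every combination of the 10 groups of each was a group. No test between conditions was made. Named were the 5 strongest control peaks, the 5 strongest without a counterpart in each list, and up to 8 genes per list in order of control −log10 p, and others where stated. The members, the gene lists and the rule were chosen with earlier results of these data known. Alternatives were stricter q-values, other windows and overlaps, 1 start per gene, autosomes only, equal numbers of peaks and equal peak properties. Scripts were tested on simulated data and overlaps checked with bedtools. Python 3.11.15, numpy 2.4.6, pandas 2.3.3, scipy 1.17.1, pysam 0.24.0 and matplotlib 3.10.9 were used.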

Additional observations from a re-analysis of the deposited data

How the results depend on the processing

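Of 78 recomputed values 27 stayed within the interval of the reported value and 43 moved beyond it. The other 8 are of the covered length ratio, which has no interval. Among the ratios and differences 0 changed direction, while the retained and shared shares have no direction that could change. At lncRNA-only promoters the ratio of peak numbers was 0.601 with a −log10 q of at least 5, 0.745 with 1 start per gene and 0.961 with equal numbers of peaks, and the ratio of gene numbers was 0.638 with a −log10 q of at least 5 and 0.975 with equal numbers. With equal numbers the ratio over all peaks is 1 by construction. The covered length ratio was 0.631 and 0.557 with a −log10 q of at least 2 and 5, 0.655 and 0.618 with windows of 500 and 2000 bp, 0.694 with 1 start per gene, 0.643 without peaks that had a protein-coding start within 5000 bp, 0.637 on autosomes and 0.808 with equal numbers.

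The retained share of control peaks was 63.2% and 54.7% with a −log10 q of at least 2 and 5, 50.7% with an overlap of at least 50%, 64.0% and 56.7% with windows of 500 and 2000 bp, 67.2% with 1 start per gene and 76.3% with equal numbers. In the same order, the share of MGO peaks with a control peak was 91.9%, 91.0%, 83.2%, 89.8%, 85.0%, 90.4% and 79.4%. In an alternative chosen after seeing the data, peaks whose −log10 q reached 2 were compared with all deposited peaks of the other list, and these shares were 74.4% and 95.1%.

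The difference in retention from protein-coding-only promoters was −20.6 and −11.2 points with a −log10 q of at least 2 and 5, −27.6 with 50% overlap, −16.0 with equal numbers and −17.2 against all deposited peaks. At equal fold enrichment it was −20.3, at equal −log10 p −13.3, at equal width −15.2, at equal GC content −14.5, at equal −log10 p and width −11.1, and at equal −log10 p and GC content, also added after seeing the data, −6.52. The difference from distal peaks was 26.6 with a −log10 q of at least 5, 32.8 with 50% overlap, 39.6 and 32.6 with windows of 500 and 2000 bp and 40.5 with 1 start per gene. With these properties held equal, in that order, it was 25.4, 16.8, 26.7, 24.6, 13.4 and 10.2. Leaving out genes that overlap a pseudogene, likewise added, gave a number ratio of 0.670 and a retained share of 58.5%. Apart from the alternatives that alter the set of peaks or the weights by construction, the cause of these shifts was not tested.

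The peak lists hold no read depth per peak and nothing below the calling limit, and 91.9% of retained but 48.5% of lost control peaks had a q-value under 0.01. No paired analysis was possible because each condition has 1 library and no test between conditions was made.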
